A study of Homo sapiens with 36 samples.

Results

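The response of LoVo cells to 1 nM of a MEK inhibitor was described from 9 of the 36 libraries of a dose series, taken by their dose labels: 3 libraries of cells given 1 nM and 6 of cells given the solvent DMSO alone. LoVo is an established human colorectal cancer line. All groups were grown in F-12K medium with 10% FBS and treated for 24 hours, and the inhibitor is compound 33 of a published medicinal chemistry series. Of the DMSO libraries, 3 were labelled chip 1 and 3 chip 2, and the treated libraries carry no chip label. The neighbouring 0.3 nM group and the highest dose, 1000 nM, each with 3 libraries, serve for comparison.

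MEK is the kinase that phosphorylates and activates ERK, the last kinase of the RAS to RAF to MEK to ERK cascade. Active ERK enters the nucleus, where it switches on immediate early genes such as FOS and EGR1 and a set of its own inhibitors, among them the DUSP phosphatases and the Sprouty proteins. Transcripts of these targets therefore serve as a readout of pathway output, and in colorectal cancer cells the pathway is known to drive cell cycle entry, ribosome production and metabolic genes.

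Total counts of the 9 libraries lay between 2972186 and 4678461, and 12102 of 20802 genes passed the filter on low counts. Values are CPM, reads of a gene scaled to the size of its library. They depend on the amplicon of each gene, so only levels of the same gene are compared. DMSO libraries with the same number shared their deviations across chips, so DMSO is given as 3 pair means. A gene was called higher or lower when edgeR's quasi-likelihood test against the DMSO libraries of either chip gave an adjusted p below 0.05 (Benjamini-Hochberg, larger of both p-values) with the same sign. The log2 fold changes take the average of the chip 1 and chip 2 groups as the base and carry the larger standard error (SE). The SE was derived from the test, as the absolute log2 fold change divided by the square root of the F value. The labels' protocols speak of biological replicates without saying how cultures were separated, so p-values refer to the spread among these libraries, which may be technical. In such bulk RNA fewer cells of a type and less RNA per cell cannot be told apart.

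Replicate 1 of 1 nM stood apart from the other two. Among 7764 well measured genes, 207 lay more than 1 log2 unit from the mean of the other pair, against 17 for replicate 2 and 21 for replicate 3. Its differences from DMSO correlated across genes at 0.528 and 0.469 with those of replicates 2 and 3, which correlated at 0.765 with each other. Replicate 1 also had fewer counts, 2989396 against 4678461 and 4222407 in replicates 2 and 3, while DMSO libraries of chip 2 had 2972186 to 3304337. Libraries of the same group also differed along 1 shared axis, the first component of their deviations, which took 22.4% of the variance within groups. Of all tested genes 12.45% followed this axis (absolute correlation above 0.6 over the 36 libraries), and of the genes called at 1 nM 24.5%. Counts of called genes are therefore also given without replicate 1 and with the library's position on this axis as a covariate, and single genes where either ended their call. That covariate was added after seeing the data, and how far the axis enters the calls was not tested. The position also differed between the groups compared. It was 7.61 to 10.6 in the DMSO libraries and 4.85, -8.86 and -6.94 in replicates 1, 2 and 3 of 1 nM. The covariate is therefore not independent of dose, and how much of a dose difference it takes up was not tested.

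At 1 nM 965 of the 12102 genes were called, or 7.97%, of which 478 were higher (3.95%) and 487 lower (4.02%). The changes were small: the median absolute log2 fold change of the called genes was 0.60, and 48 rose and 102 fell by at least 2-fold. In 2550 genes, 21.1% of those tested, the 3 libraries at 1 nM lay all above or all below the 6 DMSO libraries, and 935 of the called genes were among these. Without replicate 1 of 1 nM 706 genes were called, of which 575 were shared. With the covariate 663 were called, of which 530 were shared.

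Transcripts that read out ERK activity were already lower at 1 nM. DUSP6, a phosphatase that inactivates ERK, read 35.2, 37.5 and 35.6 CPM at 1 nM against 64.8, 60.6 and 67.1 CPM in DMSO. The groups did not overlap, and the log2 fold change was -0.83 (SE 0.122; edgeR, adjusted p = 5.25e-06). DUSP4, a related nuclear phosphatase, went from 119, 114 and 131 CPM to 77.6, 77.5 and 91.9 CPM, a fold change of -0.56 (SE 0.108; edgeR, adjusted p = 0.00238). PHLDA1, a small protein induced by ERK, fell by 0.65 (SE 0.0952) and the ephrin receptor EPHA2 by 0.50 (SE 0.117) on the log2 scale. Both were lower in each of the 3 treated libraries than in any DMSO library: PHLDA1 lay at 275 to 283 CPM against 417 to 462 CPM, and EPHA2 at 307 to 326 CPM against 432 to 467 CPM. SPRY2, a Sprouty inhibitor of the cascade, read 38.6, 39.5 and 43.7 CPM against 59.5, 53.9 and 59.2 CPM, also without overlap (-0.50, SE 0.126; edgeR, adjusted p = 0.0263). Its call was lost without replicate 1 or 2 of 1 nM (edgeR, adjusted p = 0.0735 and 0.0866), without replicate 1 or 3 of DMSO chip 1 (0.126 and 0.106), and with the covariate (0.113).

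The remaining members of this 10-gene MAPK activity list did not pass the test. ETV4 and ETV5, ETS transcription factors downstream of ERK, stood at -0.30 (SE 0.14) and -0.35 (SE 0.169). For ETV5 the libraries disagreed, with 75.8 CPM in replicate 1, inside the DMSO range, and 49.3 and 45.1 CPM in replicates 2 and 3, below it. Without replicate 1 it was called, at -0.60 (edgeR, adjusted p = 0.0383). CCND1, which encodes cyclin D1, was at 248, 302 and 277 CPM against 268, 287 and 296 CPM (-0.04, SE 0.0977). SPRY4, a second Sprouty gene, was barely measured, with 0, 0.651 and 1.67 CPM at 1 nM and 2.67, 3.14 and 2.29 CPM in DMSO (-1.64, SE 0.579; edgeR, adjusted p = 0.0784), and it was called without replicate 3 of 1 nM (edgeR, adjusted p = 0.0203). EPHA4 lay at 3.10 to 3.91 CPM within the DMSO range. In all, 5 of the 10 were called lower, where 4.02% of all genes were. Of the 10, 6 lay below every DMSO library, as did 1269 of all 12102 tested genes. The list median was -0.53 against 0.02 for all tested genes. The median was -0.60, -0.54 and -0.58 in the 3 libraries taken singly. DUSP4, PHLDA1, EPHA2 and CCND1 followed the axis between libraries of the same group, and 5 of the 10 were called without replicate 1 and 4 with the covariate. The panel of ERK-responsive genes by library shows the size of these differences beside those at 1000 nM.

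**Figure D1:**
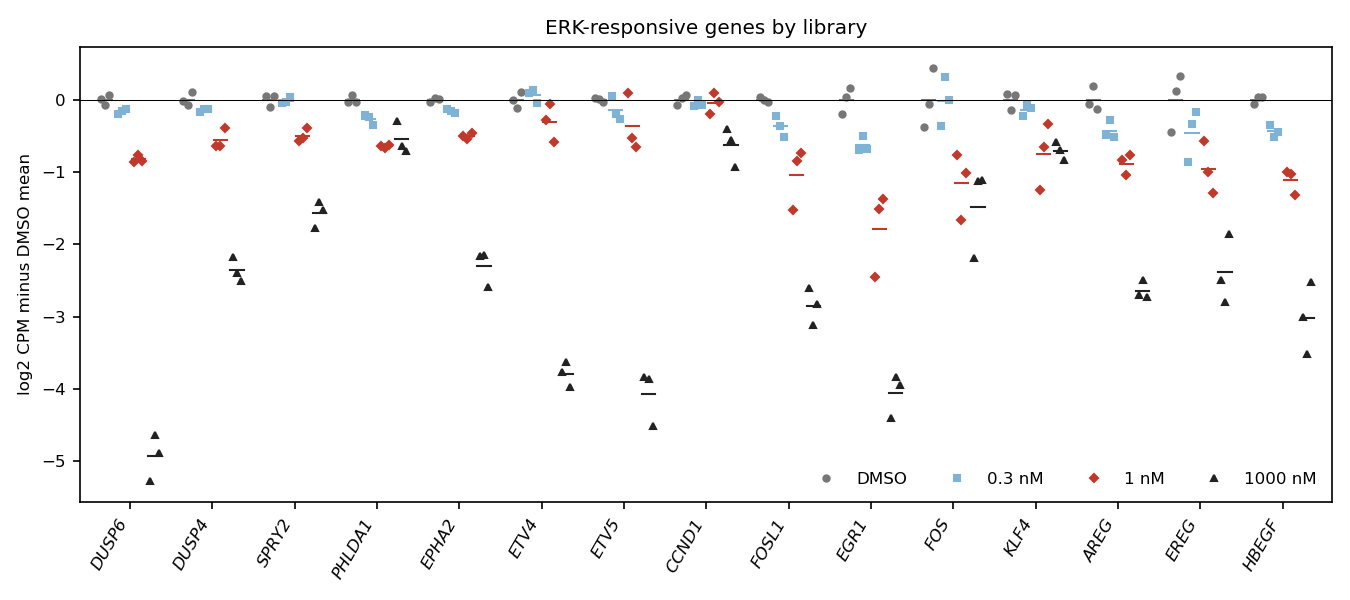
Level of 15 ERK-responsive genes (x axis) as log2 CPM minus the DMSO mean (y axis). Points are the 3 DMSO pair means (grey circles) and the 3 libraries each at 0.3 nM (blue squares), 1 nM (red diamonds) and 1000 nM (black triangles), and short lines are group means. DUSP6 lies near -0.83 at 1 nM and -5.06 at 1000 nM, while PHLDA1 and KLF4 lie about as low at 1 nM as at 1000 nM.

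Immediate early genes, which respond to growth signals within minutes, fell in 3 of 16 tested members, with a list median of -0.21. Of all genes 4.02% were called lower. The count was 3 without replicate 1 of 1 nM and 2 with the covariate. EGR1, a zinc finger transcription factor, had the largest fall of the called genes in the MAPK activity, feedback and immediate early lists: 7.24, 14.1 and 15.5 CPM at 1 nM stood against 35.5, 41.8 and 45.8 CPM in DMSO. The ranges were well separated and the log2 fold change was -1.69 (SE 0.181; edgeR, adjusted p = 1.22e-08). It was lowest in replicate 1, the library that stood apart, and stayed called without it. KLF4, a zinc finger factor of gut epithelium, read 18.6, 28.0 and 35.1 CPM against 46.9, 40.1 and 46.6 CPM (-0.68, SE 0.147). FOS, an AP-1 subunit, was low in all groups, at 3.45, 1.74 and 2.86 CPM against 4.63, 5.82 and 8.61 CPM (-1.27, SE 0.376; edgeR, adjusted p = 0.0334). Its call was lost without replicate 2 or 3 of 1 nM (edgeR, adjusted p = 0.19 and 0.0557), replicate 2 or 3 of DMSO chip 1 (0.0904 and 0.0888) or replicate 3 of chip 2 (0.268), in DESeq2 (0.0525) and with the covariate (0.126). MYC, chosen after its values were seen, was at 368, 368 and 409 CPM against 412, 442 and 416 CPM and did not pass (-0.15, SE 0.0907), while 1000 nM minus 1 nM was -2.77 (SE 0.103).

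The 250 bases before the start of EGR1 are shown because this gene fell most among the called ERK genes and its promoter holds the SRF site (CArG box), through which ERK signalling is known to reach immediate early genes. The sequence is RefSeq's, build GRCh38.p14, chr5:138465229-138465478, forward strand, with the SRF matches in capitals.
EGR1: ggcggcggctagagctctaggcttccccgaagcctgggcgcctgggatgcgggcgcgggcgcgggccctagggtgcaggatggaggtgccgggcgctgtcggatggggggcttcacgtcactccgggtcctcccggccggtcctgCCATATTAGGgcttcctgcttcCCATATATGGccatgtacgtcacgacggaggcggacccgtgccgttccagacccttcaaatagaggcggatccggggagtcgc
The window holds 2 matches, where 1.14% of all 27305 promoters in the table hold any. Of 10 called genes from the MAPK activity, ERK feedback and immediate early lists, 8 have a promoter in the table. The cAMP response element TGACGTCA was found in EPHA2 (1.77% of all promoters, 2.97% of those of tested genes). The E-box CACGTG was found in KLF4 (6.49% and 9.18%). The ETS site CCGGAAGT (3.64% and 7.31%) and the AP-1 site TGACTCA (4.16% and 2.36%) were not found in these 8 windows. Both strands were searched, and none of these motifs contains another. A match describes letters and is not a measured binding site.

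Among feedback genes and other targets of ERK, 2 of 18 were called, both lower, where 4.02% of all genes were. FOSL1, an AP-1 subunit whose protein ERK also stabilises, read 25.2, 40.6 and 43.7 CPM against 74.9, 73.0 and 71.8 CPM (-0.98, SE 0.132; edgeR, adjusted p = 3.74e-06), below every DMSO library. PLK3, a stress-induced polo-like kinase, read 6.89, 6.29 and 7.40 CPM against 14.3, 11.5 and 14.7 CPM (-0.98, SE 0.266; edgeR, adjusted p = 0.0163). The PLK3 call was lost without replicate 2 of 1 nM (edgeR, adjusted p = 0.0741), replicate 1 or 3 of DMSO chip 1 (0.117 and 0.0803) and with the covariate (0.272). The number called in this list was 1 to 4 when single libraries were left out: 3 without replicate 1 of 1 nM, 1 without replicate 2 of 1 nM or replicate 1 of DMSO chip 1, and 1 higher and 3 lower without replicate 3 of 1 nM. With the covariate it was 2.

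Ligands that stimulate the EGF receptor upstream of the pathway fell as well. AREG (amphiregulin) read 64.1, 55.8 and 67.5 CPM against 110, 132 and 105 CPM, without overlap (-0.89, SE 0.145; edgeR, adjusted p = 0.000126). HBEGF, the heparin-binding ligand, read 37.9, 37.1 and 30.6 CPM against 73.2, 78.3 and 78.3 CPM (-1.13, SE 0.159; edgeR, adjusted p = 5.16e-06). EREG (epiregulin) spread more, with 66.5, 49.5 and 40.3 CPM against 72.3, 108 and 125 CPM. The 3 treated libraries lay below the lowest DMSO library at 71.3 CPM, and the call (-0.98, SE 0.257; edgeR, adjusted p = 0.0185) was lost without replicate 2 or 3 of 1 nM (0.0669 and 0.083), replicate 2 or 3 of DMSO chip 1 (0.0667 and 0.0792) or replicate 3 of chip 2 (0.0975), and with the covariate (0.171). These were the 3 members called of 9 tested ligands and ERBB receptors, all lower, where 4.02% of all genes were. The count was 3 without replicate 1 of 1 nM and 2 with the covariate. Of 14 other receptor kinases and adaptors 2 were called, both lower, where 4.02% of all genes were. The count was 2, both lower, without replicate 1 and 1 with the covariate. The 2 called were MET and IRS1. MET, the hepatocyte growth factor receptor, lay at 136 to 145 CPM against 210 to 239 CPM (-0.68, SE 0.161). IRS1, the insulin receptor substrate, stood at -0.50 (SE 0.123) and was lost with the covariate (edgeR, adjusted p = 0.0951). MET followed the axis between libraries, with a correlation of 0.91.

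Of 21 tested genes from RAS to ERK 1 was called, a share near that of all genes called higher (3.95%). It was RPS6KA1, which encodes the ERK-activated kinase RSK1, at 72.0, 83.1 and 70.9 CPM against 54.6, 51.1 and 59.0 CPM (0.46, SE 0.122; edgeR, adjusted p = 0.0123). This call was lost without replicate 2 of 1 nM (edgeR, adjusted p = 0.11), replicate 1 or 2 of DMSO chip 1 (0.0643 and 0.0833), replicate 2 of chip 2 (0.0695) and with the covariate (0.0853). MAP2K1, which encodes MEK1, stood at 0.05 (SE 0.0932) and MAPK3 (ERK1) at 0.20 (SE 0.112).

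**Figure D2:**
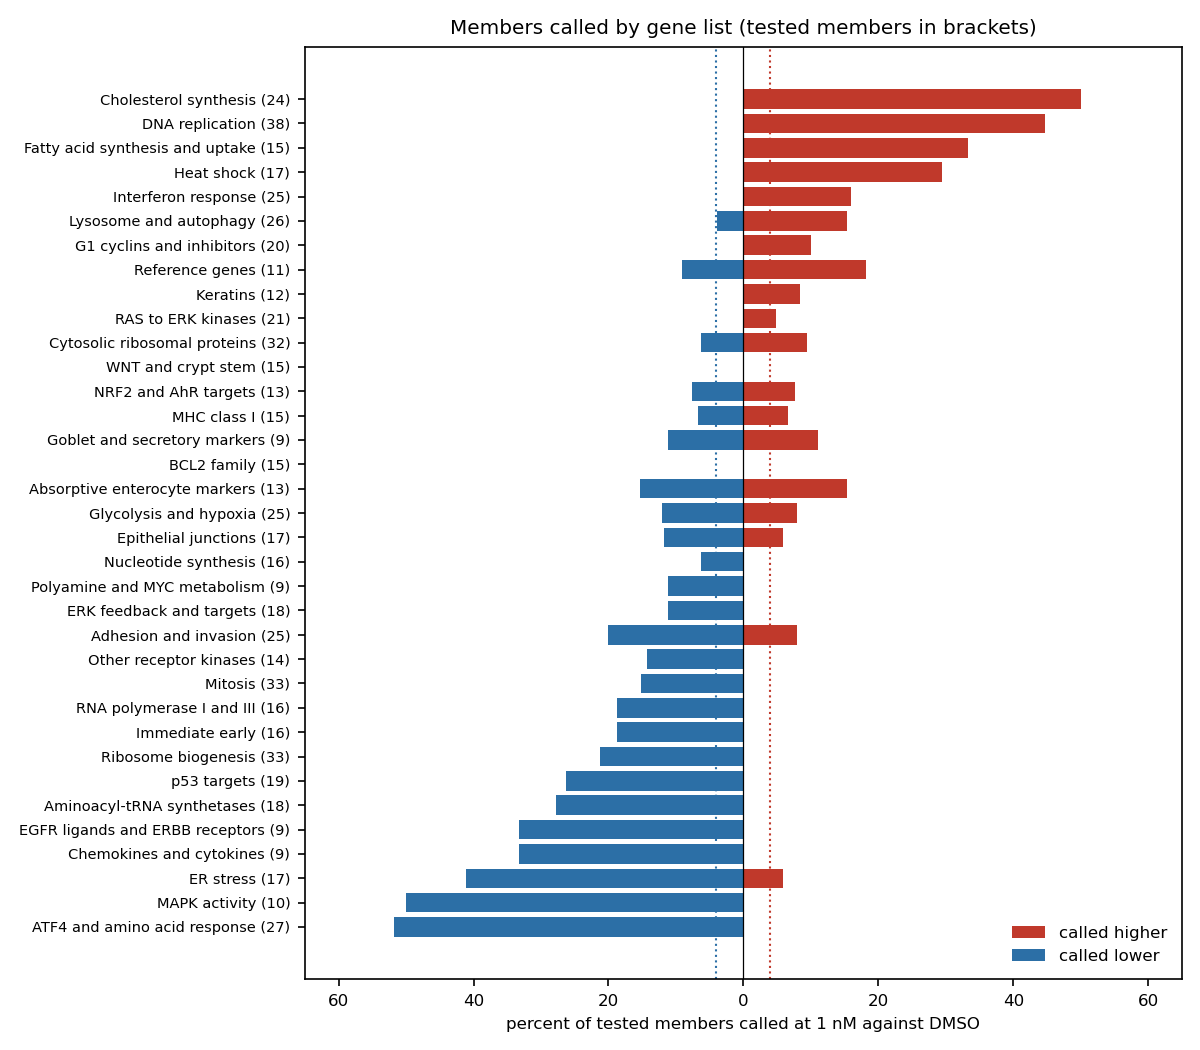
Percent of tested members called at 1 nM against DMSO (x axis) in each gene list with at least 9 tested members (y axis, number tested in brackets), higher in red to the right and lower in blue to the left. Dotted lines mark the share of all tested genes called higher (3.95%) and lower (4.02%). Cholesterol synthesis and DNA replication lie at the top, MAPK activity and the ATF4 list at the bottom.

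Genes of DNA replication rose at 1 nM. Of 38 tested members 17 were called higher, where 3.95% of all genes were, and the list median was 0.40. PCNA, the sliding clamp of the replication fork, read 120, 122 and 82.8 CPM against 58.0, 60.9 and 60.04 CPM (0.86, SE 0.122; edgeR, adjusted p = 8.58e-06), a 1.81-fold rise. LIG1, the ligase that joins Okazaki fragments, read 166, 122 and 125 CPM against 83.0, 83.7 and 76.9 CPM (0.75, SE 0.114; edgeR, adjusted p = 1.37e-05). In both genes every treated library lay above every DMSO library. Subunits of the replicative helicase rose less, MCM6 by 0.59 (SE 0.102), MCM4 by 0.56 (SE 0.121) and MCM3 by 0.51 (SE 0.086). The nucleotide enzymes TYMS and RRM2, chosen with MCM4 and SLBP after their values were seen, rose by 0.47 (SE 0.102) and 0.40 (SE 0.0868), and SLBP, the histone mRNA binding protein, by 0.56 (SE 0.114). Among 20 genes of the G1 phase 2 were called, both higher, where 3.95% of all genes were. The count was 2 without replicate 1 of 1 nM, 1 without replicate 2 of 1 nM or replicate 3 of DMSO chip 2, and 3 with the covariate. E2F1, a transcription factor of replication genes, read 71.4, 60.1 and 48.9 CPM against 34.7, 36.8 and 41.8 CPM (0.66, SE 0.135; edgeR, adjusted p = 0.00114). CDK2, the kinase that starts S phase, stood at 0.39 (SE 0.101) and lost its call without replicate 2 of 1 nM (edgeR, adjusted p = 0.183) or replicate 3 of DMSO chip 2 (0.0835).

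The rise was present in each treated library and did not continue with dose. The median of the replication list was 0.31 to 0.46 in the single libraries at 1 nM and 0.13 to 0.18 at 0.3 nM. It was 0.26 to 0.35 at 3 nM, 0.16 to 0.22 at 10 nM, -0.21 to -0.06 at 30 nM and -0.72 to -0.57 at 1000 nM. Tested directly, 1000 nM against 1 nM gave 34 of 38 members lower, where 20.6% of all genes were called lower. PCNA differed by -0.72 (SE 0.119), MCM3 by -1.32 (SE 0.0882), MCM6 by -1.05 (SE 0.103) and E2F1 by -1.10 (SE 0.138) in that contrast. At 1000 nM PCNA and LIG1 were at 65.5 ± 8.51 and 80.3 ± 1.5 CPM (SD, n = 3), close to their DMSO means, and MCM3 was at 124 ± 13.9 CPM, below its DMSO mean of 217 CPM. The count at 1 nM was 16 higher and 1 lower without replicate 1 of 1 nM, 10 higher and 1 lower without replicate 2, 11 without replicate 3 of DMSO chip 1 or replicate 1 of chip 2, and 9 with the covariate. PCNA, LIG1, MCM3, MCM4, MCM6, TYMS, RRM2 and SLBP stayed called in each of these.

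Promoters of 2 of these genes are shown because they carry the letters of an E2F site, TTTNNCGC, which was searched on both strands after the replication genes were seen to move together. Capitals mark the matches in the 250 bases before the start, from RefSeq, build GRCh38.p14. PCNA lies at chr20:5126623-5126872 and MCM6 at chr2:135876444-135876693, both on the reverse strand.
PCNA: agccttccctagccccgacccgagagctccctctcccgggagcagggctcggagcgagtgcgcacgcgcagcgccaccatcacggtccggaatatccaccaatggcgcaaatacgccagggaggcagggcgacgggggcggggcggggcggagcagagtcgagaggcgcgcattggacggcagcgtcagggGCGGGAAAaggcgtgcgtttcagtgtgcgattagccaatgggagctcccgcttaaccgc
MCM6: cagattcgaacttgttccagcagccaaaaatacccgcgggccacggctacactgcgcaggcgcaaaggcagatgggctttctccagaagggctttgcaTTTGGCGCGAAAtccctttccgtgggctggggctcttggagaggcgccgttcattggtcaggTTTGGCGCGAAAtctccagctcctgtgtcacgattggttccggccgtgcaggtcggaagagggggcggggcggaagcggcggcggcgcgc
PCNA holds 1 match, and MCM6 holds 4 in 2 stretches, each read on both strands with overlapping letters. Of the 15 replication genes called higher that have a promoter in the table, 10 held the motif, or 66.7%. Of the 19 tested members that were not called, 5 held it (26.3%), and of 9547 promoters of tested genes 9.36% did. Among the 383 promoters of all genes called higher the share was 8.88%.

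Genes of mitosis moved the other way in a few members. Of 33 tested 5 were called, all lower, where 4.02% of all genes were, and the median was -0.105. NDC80, a kinetochore protein, read 9.65, 8.90 and 9.78 CPM against 19.2, 19.4 and 23.7 CPM (-1.13, SE 0.269), and its call was lost without replicate 3 of DMSO chip 1 (edgeR, adjusted p = 0.0757) and with the covariate (0.176). The others were CENPE (-1.03), CENPA (-0.69), CDCA8 (-0.43) and CCNB2 (-0.33). CCNB2, cyclin B2, was lost without replicate 2 of 1 nM or replicate 1 of DMSO chip 1 (edgeR, adjusted p = 0.0677 and 0.0692). CDCA8 was lost without replicate 1 of 1 nM (0.208), replicate 3 of DMSO chip 1 (0.113) and replicates 2 and 3 of chip 2 (0.0815 and 0.0959), CENPA without replicate 2 of 1 nM (0.195) and replicates 1 and 3 of DMSO chip 2 (0.101 and 0.0958), and CENPE without 7 of the 9 libraries (0.0749 to 0.168; kept without replicate 1 of either DMSO chip). The list count fell to 2 without replicate 3 of either DMSO chip and to 3 without the second library of 1 nM or of DMSO chip 2. It was 4 without replicate 1 of 1 nM. With the covariate the count was 1, and CDCA8, CENPA and CENPE were lost as well (edgeR, adjusted p = 0.085, 0.554 and 0.46).

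Cholesterol synthesis genes rose. Of 24 tested members 12 were called, all higher, where 3.95% of all genes were, with a median of 0.50. HMGCS1, which makes the precursor HMG-CoA, read 93.8, 136 and 120 CPM against 63.2, 60.7 and 58.9 CPM (0.95, SE 0.134; edgeR, adjusted p = 1.6e-05). INSIG1, the sterol-sensing partner of the SREBP system, read 85.8, 93.1 and 101 CPM against 46.9, 48.8 and 47.3 CPM (0.97, SE 0.13; edgeR, adjusted p = 1.98e-06). DHCR7, an enzyme of the last steps, rose by 0.75 (SE 0.11). For these 3 genes no treated library overlapped the DMSO libraries. The transcription factor SREBF2, chosen after its values were seen, rose by 0.56 (SE 0.1). The list count was 9 without replicate 1, 11 without replicate 2, 13 without replicate 3 and 11 with the covariate.

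Against 1 nM, the 1000 nM libraries showed 3 of the 24 members higher and 4 lower, where 20.4% and 20.6% of all genes were called, and the median difference was 0.07. HMGCS1 and INSIG1 were higher still at 1000 nM, by 0.79 (SE 0.124) and 0.59 (SE 0.118), and DHCR7 was lower (-0.81, SE 0.109). The medians of single libraries at 1 nM, 0.42 to 0.58, lay within the span of 0.30 to 0.60 seen from 3 to 1000 nM.

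**Figure D3:**
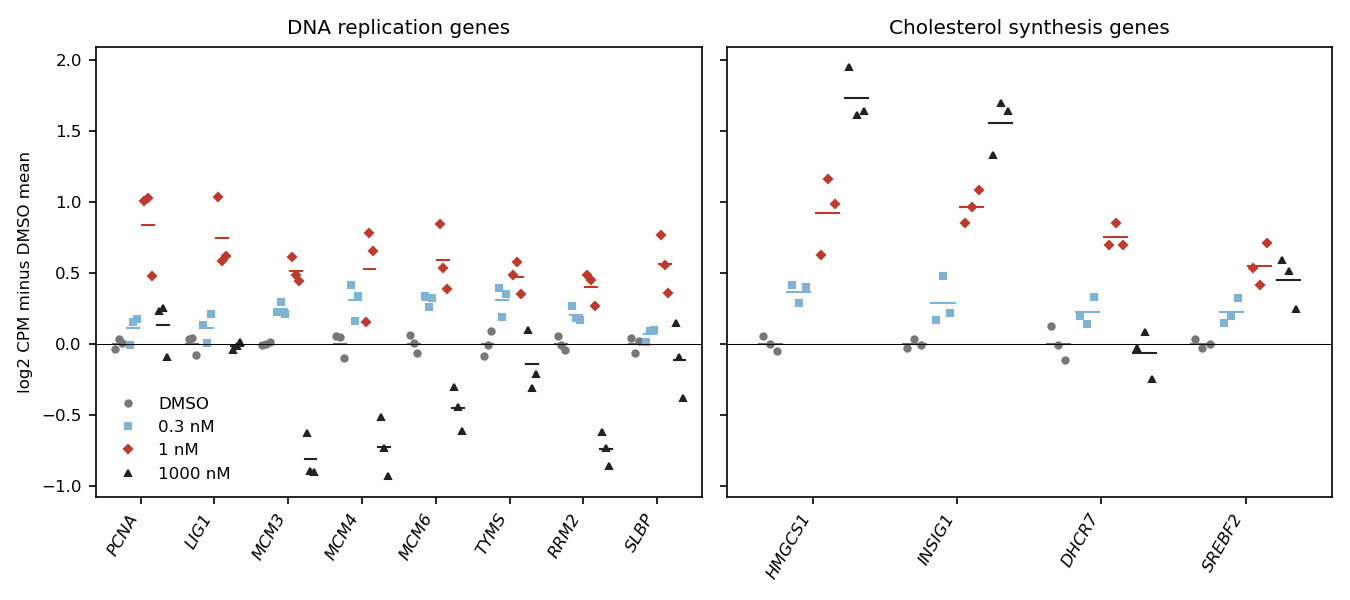
Level of 8 DNA replication genes (left) and 4 cholesterol synthesis genes (right) as log2 CPM minus the DMSO mean (y axis), with 3 points and a mean line per group as in the key. At 1 nM (red diamonds) the replication genes lie above DMSO and above the 1000 nM libraries (black triangles), while HMGCS1 and INSIG1 are higher still at 1000 nM.

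The promoter of SREBF2 is shown because it was the 1 window among the called cholesterol genes that held the sterol element TCACNCCAC, searched on both strands after the rise was seen. It lies at chr22:41832855-41833104, forward strand, RefSeq build GRCh38.p14, 250 bases before the start, with the match in capitals.
SREBF2: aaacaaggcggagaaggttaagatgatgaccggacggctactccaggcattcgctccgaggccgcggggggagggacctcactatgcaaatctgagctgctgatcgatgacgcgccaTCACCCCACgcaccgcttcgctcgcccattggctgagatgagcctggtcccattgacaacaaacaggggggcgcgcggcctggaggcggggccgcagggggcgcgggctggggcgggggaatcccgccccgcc
Of the 12 called members 7 have a promoter in the table, and 0.81% of the promoters of tested genes hold the motif.

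Fatty acid genes rose in 5 of 15 tested members, where 3.95% of all genes were called higher. SCD, the desaturase that makes monounsaturated fatty acids, read 522, 423 and 391.6 CPM against 208, 222 and 219 CPM, 2.06-fold higher (1.04, SE 0.0949; edgeR, adjusted p = 1.94e-10). It was highest in replicate 1 and above every DMSO library in each. CD36, a fatty acid transporter, rose from 3.32, 2.48 and 4.76 CPM to 8.96, 8.46 and 9.07 CPM (1.33, SE 0.263). At 1000 nM the 2 went apart: SCD was lower than at 1 nM by -0.81 (SE 0.0935) and CD36 was higher by 2.39 (SE 0.172). The hepatic lipase LIPC (1.08), the fatty acid synthase FASN (0.44) and the acyl-CoA synthetase ACSL5 (0.33) were the other 3. The count was 4 without replicate 1 of 1 nM. LIPC was lost without that library or replicate 3 of DMSO chip 1 (edgeR, adjusted p = 0.0798 and 0.113). FASN was lost without replicate 2 or 3 of 1 nM (0.0824 and 0.117), replicate 2 or 3 of DMSO chip 1 (0.0977 and 0.204) or replicate 2 of chip 2 (0.0519), and ACSL5 without any 1 of the 9 libraries (0.0615 to 0.186). The list count was 3 without replicate 2 or 3 of 1 nM or replicate 2 of either DMSO chip. It was 2 without replicate 3 of chip 1. With the covariate it was 3, and FASN and ACSL5 were lost (edgeR, adjusted p = 0.212 and 0.274).

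Genes of the amino acid response fell. ATF4 is the transcription factor that raises amino acid synthesis and import under stress. Of 27 tested genes of its response 14 were called, all lower, where 4.02% of all genes were, with a median of -0.37. ASNS, asparagine synthetase, read 135, 120 and 151 CPM against 238, 251 and 244 CPM (-0.85, SE 0.0984; edgeR, adjusted p = 6.26e-07). ALDH1L2, a mitochondrial folate enzyme, read 40.0, 42.8 and 41.5 CPM against 79.6, 80.5 and 76.4 CPM (-0.92, SE 0.157; edgeR, adjusted p = 0.000148). PSAT1, of serine synthesis, fell by 0.57 (SE 0.0965) and SLC7A11, the cystine importer, chosen after its values were seen, by 0.50 (SE 0.102). CEBPB, a partner of ATF4, read 3.10, 3.47 and 1.91 CPM against 14.9, 17.3 and 17.2 CPM (-2.53, SE 0.407), and it followed the axis between libraries with a correlation of 0.87. No treated library of these genes overlapped the DMSO libraries. The count was 12, 10 and 14 without replicates 1, 2 and 3 of 1 nM and 17 with the covariate. Further falls followed at higher doses. Comparing 1000 nM with 1 nM, 21 of 27 were called lower and 1 higher, where 20.6% and 20.4% of all genes were. ASNS differed by -1.64 (SE 0.11) and PSAT1 by -2.22 (SE 0.104) in that contrast. List medians of single libraries went from -0.48 to -0.26 at 1 nM to -1.26 to -1.10 at 3 nM.

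The C/EBP-ATF element TTGCATCA was searched on both strands after these genes were seen to fall. It was found in none of the 10 called members that have a promoter in the table, and in 1 of 11 not called. Of promoters of tested genes 0.42% hold it, and of those of genes called lower 1.46%. Aminoacyl-tRNA synthetases, which load amino acids onto tRNAs, fell in 5 of 18 tested members, with a median of -0.25. Of all genes 4.02% were called lower. The count was 6 without replicate 1 of 1 nM and 7 with the covariate. EPRS read 164, 196 and 210 CPM against 294, 286 and 308 CPM (-0.63, SE 0.0974), SARS fell by 0.66 (SE 0.107) and WARS by 0.59 (SE 0.125), all without overlap. YARS (-0.50) was lost without replicate 2 of 1 nM (edgeR, adjusted p = 0.101). CARS (-0.73) was lost without replicate 1 or 2 of 1 nM (0.0735 and 0.112) or replicate 1 or 2 of DMSO chip 1 (0.0658 and 0.0787), and with the covariate (0.196).

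Of 17 genes of endoplasmic reticulum stress 7 fell and 1 rose, with a median of -0.37. Of all genes 4.02% were called lower and 3.95% higher. Replicate 1, the library that stood apart, was lowest, with a median of -0.64 against -0.21 in either of the others. Without it 6 were called, all lower, with a median of -0.27, and with the covariate 7, all lower, with a median of -0.21. The riser was CRELD2 at 0.54 (SE 0.148), which was lost without replicate 1 or 2 of 1 nM (edgeR, adjusted p = 0.0648 and 0.114), replicate 1 or 2 of DMSO chip 1 (0.0842 and 0.12) or replicate 1 of chip 2 (0.0511). HERPUD1, of protein degradation at that membrane, read 95.2, 110 and 76.1 CPM against 145, 153 and 143 CPM (-0.65, SE 0.114; edgeR, adjusted p = 0.000119). PDIA4, a disulfide isomerase, read 19.3, 22.6 and 27.2 CPM against 45.8, 52.3 and 42.8 CPM (-1.01, SE 0.188). The transcription factor XBP1 fell by 0.60 (SE 0.119), and the sensors ERN1 and ATF6, chosen with CRELD2 after their values were seen, by 1.14 (SE 0.213) and 0.95 (SE 0.187). PDIA4, XBP1 and ATF6 followed the axis between libraries, with correlations of 0.71, 0.75 and 0.89. Of 17 heat shock genes, most of which encode chaperones and their partners, 5 were called, all higher, where 3.95% of all genes were. Their list median was 0.37. The count was 4 without replicate 1 of 1 nM and 5 with the covariate. HSPE1, the mitochondrial co-chaperone HSP10, read 234, 232 and 135 CPM against 102, 119 and 93.5 CPM (0.93, SE 0.13), and 1000 nM minus 1 nM was -0.78 (SE 0.128). DNAJA1 rose by 0.61 (SE 0.103) and HSPA1B, whose reads may be shared with its near-identical copy HSPA1A, by 0.90 (SE 0.171). HSP90AA1 (0.50) was lost without replicate 1 of 1 nM (edgeR, adjusted p = 0.0727), and HSPB1 (0.49) without replicate 3 of either DMSO chip (0.082 and 0.0899).

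Some ribosome biogenesis genes fell. Of 33 tested 7 were called, all lower, where 4.02% of all genes were, with a median of -0.27. Comparing 1000 nM with 1 nM, 33 of 33 were called lower, where 20.6% of all genes were, with a median of -1.12. NCL, the nucleolar protein nucleolin, read 333, 330 and 301 CPM against 853, 747 and 774 CPM (-1.30, SE 0.216; edgeR, adjusted p = 0.000448). DDX21, a nucleolar helicase, fell by 0.73 (SE 0.109), LYAR by 0.63 (SE 0.113) and WDR74 by 0.68 (SE 0.128). In these 4 genes the treated libraries lay below all DMSO libraries. NCL and DDX21 followed the axis between libraries (correlations of 0.83 and 0.64), LYAR and WDR74 did not (0.14 and 0.33), and 9 members were called lower without replicate 1 of 1 nM and 10 with the covariate. RRN3, the factor that brings RNA polymerase I to ribosomal DNA, read 32.8, 46.4 and 57.5 CPM against 81.5, 83.1 and 72.8 CPM (-0.78, SE 0.141).

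**Figure D4:**
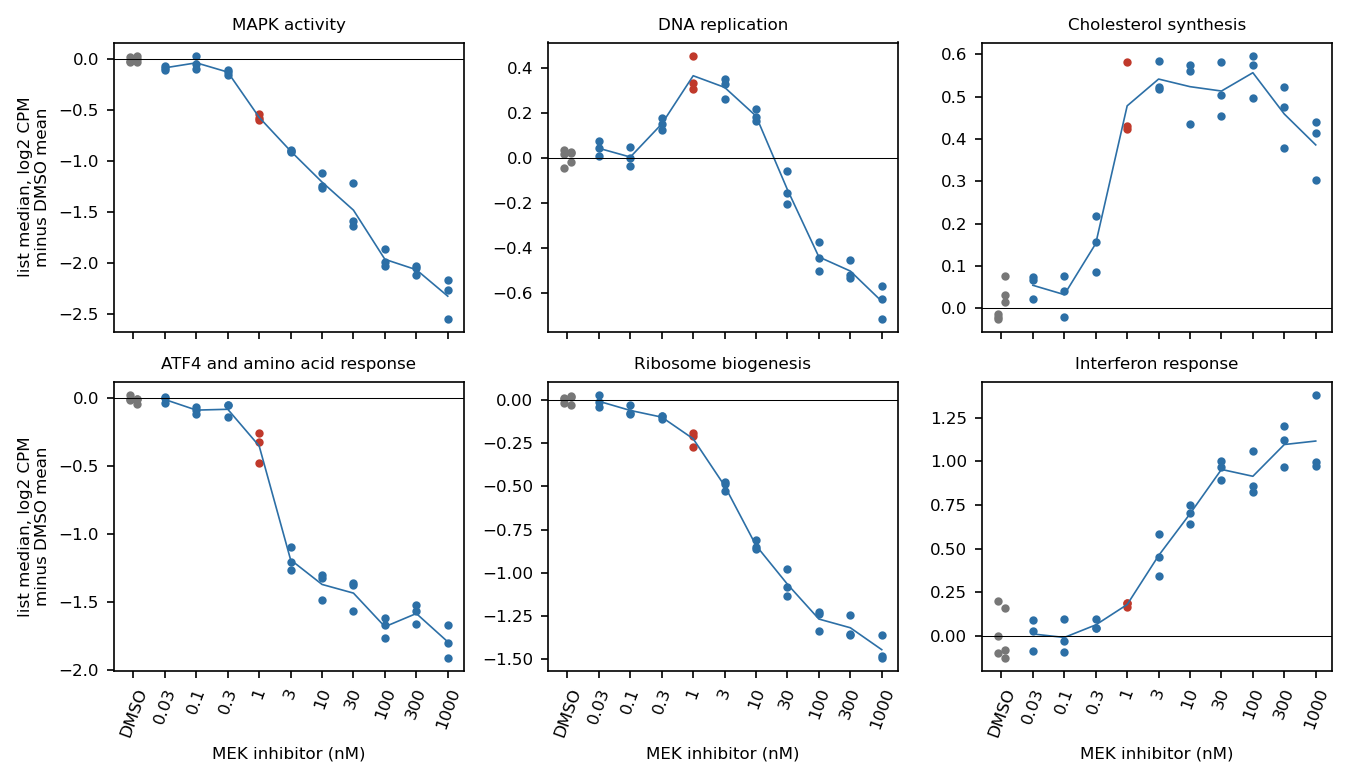
Median of a gene list in each library as log2 CPM minus the DMSO mean (y axis) by dose in nM (x axis, doses evenly spaced, not to scale), with the 6 DMSO libraries in grey, 1 nM in red and the other doses in blue, and a line through the means of 3 libraries. The mean of the DNA replication list is highest at 1 nM, where single libraries overlap those at 3 nM, and cholesterol synthesis reaches its level there. MAPK activity, the ATF4 list and ribosome biogenesis go on changing at higher doses. Interferon response lies within the DMSO span at 1 nM and above it at higher doses.

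Gut epithelial genes changed in both directions. VIL1, the microvillus protein villin, rose from 58.7, 57.9 and 54.4 CPM to 84.1, 89.4 and 80.2 CPM (0.57, SE 0.109; edgeR, adjusted p = 0.000771). CDX2, the intestinal master transcription factor, read 158, 178 and 214 CPM against 146, 140 and 128 CPM (0.41, SE 0.0956), a call lost without replicate 3 of 1 nM (edgeR, adjusted p = 0.0972) or of DMSO chip 1 (0.0567). The adhesion proteins CEACAM5 and CEACAM6 fell: CEACAM5 read 92.0, 142 and 134 CPM against 236, 261 and 237 CPM (-0.98, SE 0.104; edgeR, adjusted p = 9.43e-09), and CEACAM6 fell by 0.59 (SE 0.129). These 4 were the called members of 13 absorptive enterocyte markers, where 3.95% of all genes were called higher and 4.02% lower. The count was also 2 higher and 2 lower without replicate 1 of 1 nM and with the covariate. Of 9 goblet cell markers the membrane mucin MUC13 rose by 0.62 (SE 0.115) and the secreted mucin MUC2 fell by 0.47 (SE 0.0985), again 1 each way without replicate 1, and 1 higher and 2 lower with the covariate. Of 12 keratins KRT4 was called, from 8.95, 8.87 and 8.66 CPM to 30.0, 19.3 and 17.4 CPM (1.29, SE 0.226), highest in replicate 1. The keratin count was 1 without that library, 2 higher without replicate 3, and 1 higher and 1 lower with the covariate.

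Some genes of secreted signals fell and a few interferon genes rose. The chemokine CXCL1 read 2.07, 1.74 and 2.39 CPM against 9.95, 7.01 and 6.98 CPM (-1.95, SE 0.361; edgeR, adjusted p = 0.000205). At 1000 nM it was back at 6.005 ± 2.442 CPM (SD, n = 3), higher than at 1 nM by 1.55 (SE 0.37). The alarmin IL33 read 0.69, 0.868 and 1.19 CPM against 5.62, 3.99 and 5.44 CPM (-2.35, SE 0.532) and was lost with the covariate (edgeR, adjusted p = 0.134). CXCR4, a chemokine receptor, read 5.86, 14.5 and 13.8 CPM against 24.9, 22.7 and 22.0 CPM (-0.97, SE 0.212). These were the 3 called of 9 genes, all lower, where 4.02% of all genes were, with 3 called without replicate 1 of 1 nM and 2 with the covariate. Of 25 interferon response genes 4 were called, all higher, where 3.95% of all genes were, with a median of 0.18. List medians of single libraries were 0.164 to 0.188 at 1 nM, within the span of -0.126 to 0.2 of the DMSO libraries. The count was 3 without replicate 1 of 1 nM and 4 with the covariate, and the median was 0.074 and 0.11 without replicates 1 and 3 of DMSO chip 1 and 0.108 without replicate 1 of chip 2. Comparing 1000 nM with 1 nM, 22 of 25 were called higher, where 20.4% of all genes were, with a median of 0.99. The antiviral genes IFITM1, OAS3 and MX1 rose by 0.51 (SE 0.109), 0.61 (SE 0.112) and 0.58 (SE 0.122). BST2 (0.38) was lost without replicate 1 of 1 nM (edgeR, adjusted p = 0.476), replicate 3 of DMSO chip 1 (0.0888) and any library of chip 2 (0.0653 to 0.0978).

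Genes of glycolysis and hypoxia and of adhesion and invasion changed in both directions. Of 25 tested genes of glycolysis and hypoxia 2 were called higher and 3 lower, with a median of 0.039. Of all genes 3.95% were called higher and 4.02% lower. SLC2A1, the glucose transporter GLUT1, read 190, 224 and 240 CPM against 342, 338 and 387 CPM (-0.70, SE 0.0983; edgeR, adjusted p = 3.76e-06). PDK1, which restrains pyruvate entry to mitochondria, read 6.89, 6.94 and 6.92 CPM against 19.6, 16.7 and 17.7 CPM (-1.38, SE 0.242), and the growth factor VEGFA fell by 0.66 (SE 0.14). The risers were NDRG1, a gene induced by low oxygen, at 0.54 (SE 0.126), and the aldolase ALDOC, chosen after its values were seen, from 4.92, 4.25 and 2.71 CPM to 11.4, 6.73 and 7.64 CPM (1.06, SE 0.338). NDRG1 was lost without replicate 1 of 1 nM (edgeR, adjusted p = 0.0629), replicate 2 or 3 of DMSO chip 2 (0.0527 and 0.128) and with the covariate (0.0861). ALDOC was lost in the same cases (0.178, 0.137, 0.2 and 0.0792) and without replicate 1 or 3 of DMSO chip 1 (0.101 and 0.154). In each case where both were lost 3 members, all lower, remained called. The median was then 0.168 without replicate 1 of 1 nM, 0.064 and -0.013 without replicates 3 and 2 of DMSO chip 2, and 0.013 with the covariate. Without replicate 1 of DMSO chip 1, where NDRG1 stayed called, 1 member was higher and 3 lower, with a median of 0.073.

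Of 25 tested genes of adhesion and invasion 2 were called higher and 5 lower, with a median of -0.033. Of all genes 3.95% were called higher and 4.02% lower. TNS4, a tensin of focal adhesions, read 9.31, 12.4 and 8.83 CPM against 24.8, 22.4 and 19.8 CPM (-1.12, SE 0.195) and went on to 0.811 ± 0.281 CPM at 1000 nM (SD, n = 3). The integrin subunits ITGA2 and ITGA6 fell by 0.57 (SE 0.122) and 0.43 (SE 0.0985), the laminin chain LAMB3 by 0.36 (SE 0.0905) and the serpin SERPINB5 by 0.39 (SE 0.0942). ITGA6 was lost without replicate 1 of 1 nM (edgeR, adjusted p = 0.0733), LAMB3 without replicate 1 of DMSO chip 1 (0.0731), and SERPINB5 without replicate 2 of 1 nM or replicate 3 of DMSO chip 1 (0.094 and 0.117). The risers, chosen with SERPINB5 after their values were seen, were the laminin chain LAMA3 at 0.68 (SE 0.183), lost without 5 of the 9 libraries (0.0571 to 0.106), and the membrane protease MMP14 at 0.50 (SE 0.14), lost without 8 of the 9 (0.0547 to 0.169) and with the covariate (0.237). LAMA3 stayed called without replicate 3 of 1 nM, replicate 2 of DMSO chip 1 or replicates 2 and 3 of chip 2, and MMP14 without replicate 1 of DMSO chip 1. The count was 1 higher and 4 lower without replicate 1 of 1 nM, 4, all lower, without replicate 2 of 1 nM or replicate 3 of DMSO chip 1, and 1 higher and 6 lower with the covariate. The median was -0.101 without replicate 1 and -0.02 without replicate 2 of 1 nM, -0.082 without replicate 1 of DMSO chip 1, -0.051 and -0.05 without replicates 2 and 3 of chip 2, and 0.065 with the covariate.

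Of 19 targets of p53, the stress-induced transcription factor, 5 were called, all lower, where 4.02% of all genes were, with a median of -0.096. The count was 4 without replicate 1 of 1 nM, and 3 without replicate 2 of 1 nM, without replicate 1 of either DMSO chip and with the covariate. The median ran from -0.004 without replicate 3 of DMSO chip 1 and -0.032 without replicate 2 of 1 nM to -0.155 without replicate 1 of DMSO chip 1, -0.153 without replicate 2 of chip 2 and -0.177 without replicate 1 of 1 nM, and was -0.043 with the covariate. GDF15, a secreted stress cytokine, read 285, 350 and 398 CPM against 529, 574 and 568 CPM (-0.69, SE 0.118; edgeR, adjusted p = 0.00015). TNFRSF10B, a death receptor, read 174, 132 and 149 CPM against 236, 214 and 225 CPM (-0.57, SE 0.109; edgeR, adjusted p = 0.000643). Both were below every DMSO library, and between 1 nM and 1000 nM they differed by -0.07 (SE 0.119) and 0.0022 (SE 0.11) without a call. AEN, a nuclease, fell by 0.85 (SE 0.199) and followed the axis with a correlation of 0.83. The kinase PLK2 (-0.42, SE 0.122) was lost without replicate 1 or 2 of 1 nM (edgeR, adjusted p = 0.0542 and 0.0888), replicate 1 of either DMSO chip (0.156 and 0.128) and with the covariate (0.114). RRM2B, a ribonucleotide reductase subunit chosen after its values were seen, stood at -0.57 (SE 0.175) and was lost without 6 of the 9 libraries (0.0532 to 0.339). It stayed called without replicate 1 of 1 nM or replicate 3 of either DMSO chip, and was lost with the covariate (edgeR, adjusted p = 0.0559).

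Of 26 lysosome and autophagy genes 4 rose and 1 fell, with a median of 0.20. Of all genes 3.95% were called higher and 4.02% lower. CTSA and CTSD, lysosomal cathepsins, rose by 0.62 (SE 0.135) and 0.39 (SE 0.096), NEU1, a sialidase, by 0.41 (SE 0.112), and PSAP, the precursor of saposins, chosen after its values were seen, by 0.31 (SE 0.088). Each was above every DMSO library in all 3 treated libraries. UVRAG, of autophagosome maturation, read 3.45, 7.16 and 2.62 CPM against 8.88, 10.1 and 11.5 CPM (-1.15, SE 0.331). The list count was 2, both higher, without replicate 1 of 1 nM, and 1 to 3 higher and 0 or 1 lower without any other 1 library. None of these calls held against each library left out. CTSA was lost without replicate 1 of 1 nM (edgeR, adjusted p = 0.0548), CTSD without the first or second library of 1 nM or of DMSO chip 1 (0.0551 to 0.117) and NEU1 without 7 of the 9 libraries (0.0566 to 0.186), kept without the first library of either 1 nM or DMSO chip 1. PSAP was lost without 7 (0.0565 to 0.199), kept without replicate 1 of 1 nM or replicate 3 of DMSO chip 1. UVRAG was lost without replicate 1 or 3 of 1 nM, replicate 3 of DMSO chip 1 or replicate 2 or 3 of chip 2 (0.0619 to 0.13). With the covariate 1 member, CTSA, was called.

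The largest rises were in genes of varied kinds, and PLA2G2A, CACNG4, NPTX2, SP8 and MT1A, described here, are in none of the gene lists. PLA2G2A, a secreted phospholipase of the intestine, read 120, 91.6 and 87.1 CPM against 32.5, 29.8 and 30.4 CPM, 3.19-fold higher (1.68, SE 0.126; edgeR, adjusted p = 8.06e-14). CACNG4, a calcium channel subunit, read 7.58, 4.34 and 4.53 CPM against 1.77, 1.04 and 1.68 CPM (1.84, SE 0.404), and NPTX2, a pentraxin, 15.5, 10.8 and 12.2 CPM against 4.13, 3.58 and 4.86 CPM (1.59, SE 0.282). SP8, a zinc finger factor, read 7.24, 10.6 and 7.64 CPM against 3.78, 3.27 and 2.46 CPM (1.43, SE 0.33). The largest rises were taken only from genes without overlap between groups, so the lack of overlap here follows from that choice. MT1A, a metallothionein whose reads may be shared with near-identical relatives, rose by 1.21 (SE 0.152) and was lower at 1000 nM than at 1 nM by -1.75 (SE 0.156).

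Several of the largest falls were in genes that followed the axis between libraries. HNRNPA3, an RNA-binding protein with pseudogene copies that may share its reads, read 25.9, 13.0 and 18.6 CPM against 277, 145 and 127 CPM (-3.30, SE 0.76; edgeR, adjusted p = 0.00855). It had a correlation of 0.94 with the axis, was at 40.1 ± 2.33 CPM at 0.3 nM (SD, n = 3), and lost its call without replicate 2 of 1 nM (0.0503). The histone HIST1H2BF (-2.35, SE 0.518) and the phosphatase PTPN21 (-1.97, SE 0.405) had correlations of 0.84 and 0.82. MYEOV read 14.1, 9.98 and 8.35 CPM against 40.3, 34.1 and 35.1 CPM (-1.79, SE 0.274), with a correlation of 0.68. WDR45 (-3.43, SE 0.734), an autophagy gene at 0 to 0.868 CPM against 2.51 to 9.52 CPM in DMSO, had 0.49 and lost its call with the covariate (edgeR, adjusted p = 0.056). FKBP8, a mitochondrial immunophilin, read 2.76, 19.5 and 17.9 CPM against 74.4, 55.2 and 58.5 CPM (-2.13, SE 0.44), with replicate 1 far below the other two, and its correlation was 0.44.

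Against the neighbouring 0.3 nM group 308 genes, 2.55% of those tested, were called at 1 nM, 162 higher and 146 lower. PLA2G2A was higher than at 0.3 nM by 1.17 (SE 0.116) and CACNG4 by 1.28 (SE 0.325), and CXCL1 was lower by -1.39 (SE 0.367). DUSP6 (-0.66, SE 0.12), DUSP4 (-0.41, SE 0.106), PHLDA1 (-0.38, SE 0.0948) and SPRY2 (-0.48, SE 0.123) were the 4 of 10 MAPK activity genes called, all lower. EGR1 was lower by -1.05 (SE 0.184) and ASNS by -0.67 (SE 0.0977). In cholesterol synthesis 7 of 24 and in DNA replication 4 of 38 were called, all higher, with PCNA at 0.75 (SE 0.117) and INSIG1 at 0.68 (SE 0.123). The number of calls in this contrast was 151 without replicate 1 of 1 nM, and 130, 117 and 133 without replicates 1, 2 and 3 of 0.3 nM.

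Between 1 nM and 1000 nM, the highest dose, 2469 genes were called higher (20.4%) and 2493 lower (20.6%). DUSP6 was lower still by -4.24 (SE 0.208), ETV5 by -3.77 (SE 0.25) and EPHA2 by -1.79 (SE 0.126), and 8 of 10 MAPK activity genes were called, all lower. PHLDA1 (0.11, SE 0.0954) and KLF4 (-0.03, SE 0.152) were not called between both doses. The membrane mucin MUC20 went from 2.76, 2.82 and 0.955 CPM at 1 nM to 20.8 ± 3.56 CPM at 1000 nM (SD, n = 3), and MUC13 was higher by 1.45 (SE 0.112).

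Markers of gut epithelium, the origin of the line, were present: all 8 of EPCAM, CDH1, KRT8, KRT18, KRT19, VIL1, CDX2 and LGALS4 were detected, with summed levels of 3753 to 3948 CPM in DMSO and 3411 to 4013 CPM at 1 nM. Of 9 fibroblast markers COL1A2, DCN, THY1, FAP and POSTN had 0 counts in the 9 libraries, and the summed level was 3.27 to 4.50 CPM in DMSO and 9.30 to 9.75 CPM at 1 nM. How far this moves with other results was not tested. COL3A1, a collagen, had 26 counts in DMSO and 46 at 1 nM (1.62, SE 0.456; edgeR, adjusted p = 0.033). Its call was lost without replicate 2 or 3 of 1 nM (edgeR, adjusted p = 0.114 and 0.0836) or any library of DMSO chip 2 (0.0786 to 0.13). The covariate also ended it (edgeR, adjusted p = 0.0861). COL1A1 and LUM, not called, read 1.51 to 2.50 and 0 to 1.36 CPM in DMSO. At 1 nM they read 2.38 to 4.48 and 1.43 to 2.82 CPM. PTPRC, CD3E, HBB and MPO, of blood cells, had 0 counts, and the summed level of 8 blood markers was 8.59 to 15.7 CPM in DMSO and 9.30 to 19.9 CPM at 1 nM. Most of that sum was LYZ, at 8.28 to 15.0 CPM in DMSO and 7.23 to 18.4 CPM at 1 nM. The summed level of 6 endothelial markers was 4.42 to 8.15 CPM in DMSO and 4.13 to 6.91 CPM at 1 nM, most of it ESAM. Of genes often used as references ACTB rose from 2930, 2741 and 2853 CPM to 5125, 4224 and 4028 CPM (0.65, SE 0.116), PPIA rose by 0.45 (SE 0.0905) and B2M fell by 0.44 (SE 0.106), whereas GAPDH stood at 0.09 (SE 0.122).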

How the data were processed

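RNA of LoVo cells was amplified gene by gene (Ion AmpliSeq) and sequenced on Ion Torrent, per the labels' protocols. The deposited files hold whole-number counts per gene, not normalized. Per the submitters' processing notes the genome was hg19. Aligner and counter: not given in the sources used here. Spike-in rows (10, all at 0) were dropped. Reads carry no molecular identifiers that the labels name, so copies made by amplification enter the counts. edgeR 4.0.16 in R 4.3.3 (filterByExpr, TMM, robust quasi-likelihood fit of 12 groups to 36 libraries, 24 residual degrees of freedom) gave all tests. They were checked on simulated counts drawn independently for each gene and library. These held no shared axis, paired DMSO libraries or outlying replicate, so the check does not cover them. DESeq2 1.42.0 was an alternative, beside other scaling, low-count filters, DMSO groups, a replicate block and each library left out.

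The members and gene lists were chosen with earlier results of these data known. Genes named are the 12 largest rises and falls at 1 nM with at least 5 CPM and no overlap, the MAPK activity list, up to 4 called members of other lists by adjusted p, reference and cascade genes, and the 3 to 5 largest in the other contrasts. Some of these are not reported here, and exceptions, chosen after their values were seen, are named beside their values (also CARS, CENPE, ACSL5 and HSPB1). Deviations of same-numbered DMSO libraries correlated at 0.182 to 0.333, so DMSO is given over 3 pairs, with the pairing taken from the replicate numbers.

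Promoters are RefSeq's (GRCh38.p14), matched by symbol to 9607 tested genes. No coordinates of the count files were used. EPGN and HBA1 were not analysed here.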

Additional observations from a re-analysis of the deposited data

How the results depend on the processing

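The number of genes called at 1 nM against DMSO was 968 with DESeq2 size factors as scaling and 1004 in DESeq2. Against chip 1 or chip 2 of DMSO alone it was 1652 or 1789, against both chips averaged 2537, and 1824 where the DMSO counts of both chips were summed. Leaving out 1 library gave 645 to 988. Against 0.3 nM it was 308, 488 without a filter on low counts, 61 with only the libraries compared, and 117 to 378 without 1 library. For 1000 nM against 1 nM the 4962 calls became 2938 with only the libraries compared, and 4383 to 4692 without 1 library. Numbers of 1 nM libraries did not pair with DMSO numbers, and a replicate block gave 938 calls, 918 of them shared, with 309 and 4924 in the other contrasts, and ended none of the 117 calls named. Of those 117 genes, 77 stayed called under each of the 20 alternatives, 106 with only the libraries compared and 91 with the covariate added after seeing the data, which gave 663, 462 and 5397 calls in the 3 contrasts, and none reversed. CCND1 and GAPDH, not called, changed sign without replicate 1 of 1 nM, to 0.024 and -0.132, and without any other 1 library reached -0.118 and 0.199. With 3 libraries a group, calls near the threshold were lost where single libraries were left out.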
